A study of Mus musculus with 8 samples.

Results

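The immediate early and AP-1 genes described here are 10 genes taken by name, Ier2, Ier3, Fos, Fosb, Jun, Junb, Jund, Myc, Atf3 and Egr1, out of 15995 gene symbols listed for newborn mouse epidermis. All 10 are listed with a value in each library, and all 10 passed the filter on low values that 11395 genes passed. The 4 knockout libraries come from ZFP750-/- mice and the 4 wild-type libraries from WT mice, all of strain C57BL/6J and newborn. Zfp750 encodes a zinc finger protein of differentiating epidermis, and the series asks what its loss does to skin lipid metabolism and the skin barrier. Skin was laid on trypsin-EDTA in the cold overnight in every sample, after which the epidermis was peeled off and frozen. The sources used here do not give how the gene was inactivated or whether each library came from a separate pup. The p-values therefore measure only the spread between these samples, which may be technical. Titles also carry an RM code whose meaning they do not state. Knockout 1 and wild type 4 share code 11, knockout 2 and wild type 3 share code 14, and the other 4 libraries have code 44.

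Immediate early genes are switched on within minutes of a signal, from transcription machinery already present in the cell. Growth factors, wounding and stress reach them through the MAP kinases, which act on the transcription factors SRF, ELK and CREB at their promoters. Fos and Jun proteins pair through leucine zippers to form AP-1, a transcription factor that acts on many genes of keratinocyte growth, wound response and differentiation. The same genes are known to respond to the handling and taking apart of tissue, and all 8 samples went through the same overnight step.

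Levels are given in FPKM, fragments scaled to transcript length and to the mapped total of the library, which allows genes of different length to be compared. Values are listed in library order, 1 to 4 within each genotype. Zfp750 itself ranged from 1.53 to 2.68 FPKM among knockouts and from 81.6 to 119 among wild types. Basal keratinocyte markers summed to at least 1163 FPKM in every library, while 6 endothelial markers, of which 2 are listed, summed to at most 0.622. Wild type 3 stood apart in several ways. Its summed FPKM was the lowest (483416, against 510965 to 577300 in the others), its 10 most abundant genes took 15.4% of that sum against 21.1% to 26.2%, and its skeletal muscle markers summed to 39.0 FPKM against 0.165 to 4.04. Xist, the RNA made from the inactive X chromosome of female cells, was at 118 FPKM in wild type 3 and at most 0.0223 in the other 3 wild types. Knockouts 1 to 3 had 84.6 to 150 FPKM of Xist and knockout 4 had 1.84, so that Xist ran largely with genotype. Its part in the values of the 10 genes was examined only by adding it as a term to the fit.

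Most of the 10 genes were among the abundant messages of wild-type epidermis. Fos, the partner of the Jun proteins in AP-1, led with 1064 ± 443 FPKM (SD, n = 4), followed by Junb with 425 ± 157 and Jun with 389 ± 165. Egr1, a zinc finger transcription factor, had 197 ± 75.1, Ier2, a small nuclear protein, 176 ± 67.6, Jund 138 ± 26.8 and Atf3, a stress-induced partner of Jun proteins, 120.3 ± 64.0. Fosb had 91.3 ± 38.4 and the growth regulator Myc 39.7 ± 11.9. Ier3, a small stress-induced protein linked to cell survival, was the lowest with 25.3 ± 6.68 (SD, n = 4). The wild-type ranges of every pair of neighbours in this order overlapped. Within libraries Fos was above Junb in 6 of 8, the exceptions being knockouts 1 and 2, and Jun was above Egr1 in 8 of 8.

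**Figure D1:**
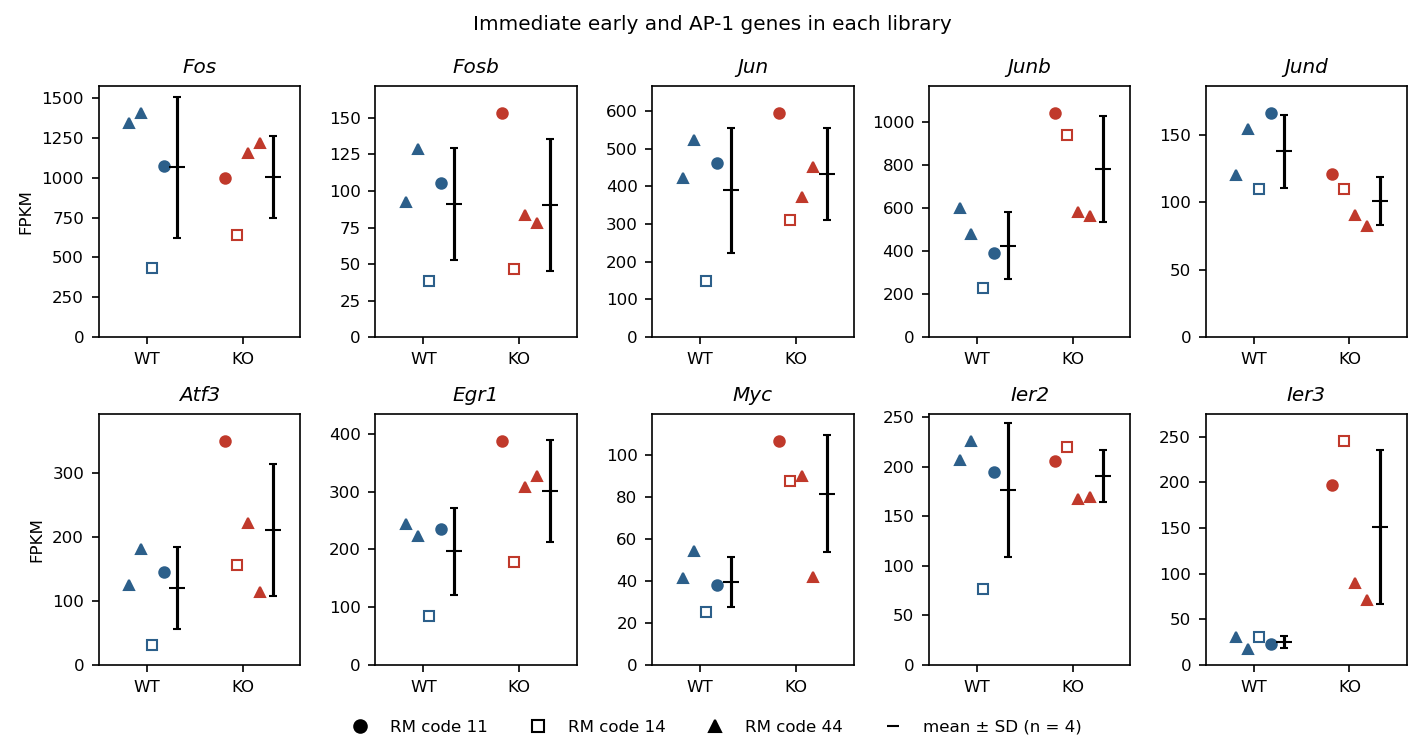
FPKM of each of the 10 genes (linear vertical axes from 0) in the 4 WT and 4 KO libraries, with the RM code as symbol and the mean ± SD beside each group. Ier3 is the gene whose groups do not overlap, and wild type 3 (open blue square) is the lowest of the 8 libraries for 8 of the 10 genes.

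Ier3 rose in the knockouts, and it was the only one of the 10 genes to pass. Its knockout values were 197, 246, 89.2 and 70.6 FPKM and its wild-type values 31.0, 17.2, 30.6 and 22.5. Every knockout was above every wild type, and knockouts 1 and 2 were above knockouts 3 and 4. The means were 151 ± 84.4 and 25.3 ± 6.68 FPKM (SD, n = 4 each), 5.95-fold apart. On the log2(FPKM + 1) scale the difference, knockout minus wild type, was 2.38 ± 0.39 (SE), with an adjusted p of 0.00310 in limma, which pools the spread over genes and adjusts for all genes tested. The two-sided exact permutation test gave p = 0.0286, the smallest that 4 against 4 allows. Across all genes tested, 6.72% passed as higher and 8.94% as lower, so 1 riser and 0 fallers among 10 is near the background. At an unadjusted p under 0.05, limma gave 3 genes higher (Ier3, Junb and Myc) and 1 lower (Jund). Over all 11395 genes tested it gave 1431 higher and 1782 lower. Groups that do not overlap, 1 of 10 here, were found for 21.3% of all genes tested (knockout above for 8.78%, below for 12.5%). Over 18 alternative settings 3.51% to 17% of all genes passed as higher and 5.13% to 15.2% as lower. The median log2 change of the 10 genes was 0.46, with 8 of 10 above 0, against a median of 0.01 over all genes. With log2 Xist as a term the median of the 10 was 0.89 against -0.07 over all genes, with array weights, which give less influence to libraries that deviate, it was 0.20 against 0.05, and Ier3 passed in both. The Xist term moved Fos from 0.01 to 0.62, Ier2 from 0.22 to 0.66, Jun from 0.26 to 0.84 and Egr1 from 0.67 to 1.20. None of these 4 passed (limma adjusted p = 0.269, 0.227, 0.173 and 0.0546). Among wild types only wild type 3 had Xist above a trace, so there the term cannot be told apart from that library. Leaving wild type 3 out moved the 4 genes the other way, to -0.38, -0.14, -0.16 and 0.31.

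The RNA of cell type markers differed as well. Langerhans and myeloid markers summed to between 2.37 and 4.71 FPKM among knockouts and between 22.1 and 47.3 among wild types. All 5 tested fell, against 8.94% of all genes. Basal keratinocyte markers summed to between 2328 and 6176 FPKM among knockouts and between 1163 and 3581 among wild types. Of the 7, 4 passed as higher, against 6.72% of all genes, 3 did not pass, and 6 had a change above 0. In bulk samples fewer cells of a type and less RNA per cell cannot be told apart. Hair follicle markers summed to 311 to 878 FPKM against 152 to 438, most of it Krt17 (293 to 814 against 137 to 386). None of the 6 passed limma's test. Krt17 alone was higher at an unadjusted p under 0.05, as were 1431 of all 11395 genes. The part of these cell type markers in the values of the 10 genes was not tested.

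Ier3 lies on chromosome 17 from 35821684 to 35822923 on the plus strand (GRCm38, GENCODE), with 2 exons. Promoter sequence was found for 7 of the 10 genes in RefSeq (GRCm38.p6), and 4 are printed to set the gene that rose beside Junb, whose difference in change between RM codes had the smallest p of the 10 genes, and beside Fos and Jun, whose changes were small. Each is the 150 bases before the RefSeq start, 5′ to 3′ on the gene's strand, with motif matches in capitals. The windows are chr17:35821563-35821712 (plus strand), chr8:84978749-84978898 (minus), chr12:85473740-85473889 (plus) and chr4:95052223-95052372 (minus). RefSeq and GENCODE starts differ for some genes. The Ier3 window runs past the GENCODE start of the gene (35821684). For Jund, searched but not printed, the bases before the RefSeq start end at 70697738, away from the GENCODE start (70698949).
Ier3: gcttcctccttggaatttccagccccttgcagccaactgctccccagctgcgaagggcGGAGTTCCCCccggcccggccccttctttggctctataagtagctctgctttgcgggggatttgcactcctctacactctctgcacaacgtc
Junb: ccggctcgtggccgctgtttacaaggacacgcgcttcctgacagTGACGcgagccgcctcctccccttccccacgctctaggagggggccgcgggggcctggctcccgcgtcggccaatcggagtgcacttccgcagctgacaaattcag
Fos: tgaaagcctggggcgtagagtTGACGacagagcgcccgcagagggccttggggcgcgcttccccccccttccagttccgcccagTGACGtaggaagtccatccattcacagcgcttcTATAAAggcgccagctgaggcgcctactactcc
Jun: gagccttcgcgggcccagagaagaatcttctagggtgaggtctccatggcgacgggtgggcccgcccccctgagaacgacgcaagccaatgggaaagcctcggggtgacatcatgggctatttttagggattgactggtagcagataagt
In Ier3 the capitals mark an NF-kB site. The capitals in Junb mark TGACG, the CRE core bound by CREB, and those in Fos mark 2 CRE cores and the TATA box TATAAA. Jun holds none of the motifs searched.

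Both strands were searched in the whole 300-base windows, from 250 before to 50 after the start. The CRE core, chosen after the sequences were seen, was present in 4 of the 7 promoters (Fos, Fosb, Junb and Atf3) and in 20.8% of all 32851 promoter windows of the same length. The NF-kB site, searched by its consensus, was present in 3 (Ier3, Fos and Fosb) and in 4.51% of all. The letters TATAAA were found in 2 of 7 (13.6% of all). In Fos they lay before the RefSeq start (bases -33 to -28), and in Junb from the RefSeq start on (bases 1 to 6). The GENCODE start of Junb (84978718) lies further along the gene, and the letters in Junb come before it. The EGR site GCGNGGGCG was found in Fosb (5.55% of all). The full CRE TGACGTCA, which contains the core, the AP-1 site TGANTCA and the CArG box of SRF were in 0 of 7 windows and in 1.79%, 7.81% and 1.63% of all. These are matches of letters within short windows and say nothing of binding.

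Fos and Fosb, whose proteins need a partner to bind DNA, had nearly the same mean in both genotypes. Fos read 1000.5, 643, 1155 and 1217 FPKM across knockouts, with 1341, 1406, 435 and 1074 across wild types. Knockout 2 and wild type 3, both of code 14, were the lowest of their groups. The log2 change was 0.01 ± 0.37 (SE; limma adjusted p = 0.990). Fosb read 153, 46.9, 83.3 and 78.3 FPKM across knockouts, then 92.7, 129, 38.1 and 106 across wild types, with the same low pair and knockout 1 highest. Its log2 change was -0.01 ± 0.42 (SE; limma adjusted p = 0.991). The sign of both changed with the libraries used, and without wild type 3 the values were -0.38 for Fos and -0.38 for Fosb.

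The 3 Jun genes did not share 1 direction. Jun, the founding member, read 595, 312, 371 and 451 FPKM across knockouts, with 423, 524, 149 and 462 across wild types (log2 change 0.26 ± 0.38, SE; limma adjusted p = 0.710). The groups overlapped broadly, and without wild type 3 the change was -0.16. Junb, often described as a brake on Jun activity in epidermis, read 1044, 943, 581 and 563 FPKM across knockouts, against 601, 479.9, 229 and 391 across wild types. Only wild type 1 exceeded any knockout. The means were 783 ± 247 and 425 ± 157 FPKM (SD, n = 4 each), and the log2 change was 0.91 ± 0.31 (SE; limma adjusted p = 0.0842). Jund, which is less inducible and usually present in resting cells, read 121, 110.2, 90.8 and 82.4 FPKM across knockouts, with 119.99, 154, 110.1 and 166 across wild types. It was the only Jun gene with a lower mean in the knockouts (101 ± 17.7 against 138 ± 26.8 FPKM, log2 change -0.44 ± 0.17, SE; limma adjusted p = 0.125).

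The make-up of the Jun genes within each library does not depend on how libraries are scaled to each other. Jund took 6.88%, 8.07%, 8.71% and 7.51% of the summed Jun, Junb and Jund FPKM across knockouts, but 10.5%, 13.3%, 22.6% and 16.3% across wild types. All knockouts lay below all wild types, with wild type 3 highest. Junb took 59.3%, 69.1%, 55.7% and 51.3% in the knockouts against 52.5%, 41.4%, 46.9% and 38.4% in the wild types, so that wild type 1 and knockout 4 overlapped. For Jun the shares were 33.8%, 22.8%, 35.6% and 41.2% against 37.0%, 45.2%, 30.5% and 45.3%. These shares were chosen after the values were seen and carry no test.

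**Figure D2:**
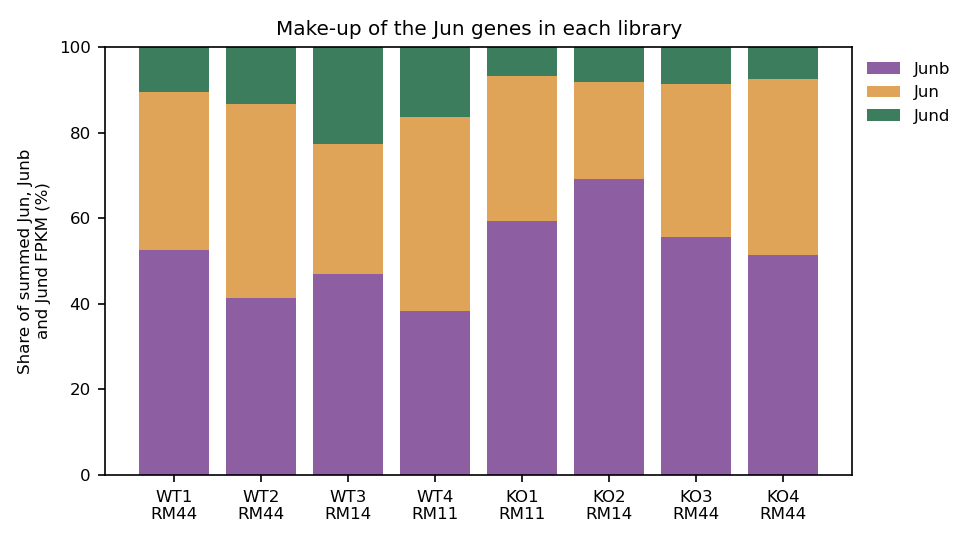
Share of the summed FPKM of Jun, Junb and Jund (vertical axis, percent) taken by each gene in each library, with the RM code under the name. The green Jund part is 6.88% to 8.71% in the KO libraries and 10.5% to 22.6% in the WT libraries.

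Overlapping genes bear on these values, since the sources used here do not give whether counting used strand. Junb lies on chromosome 8 from 84974484 to 84978718 on the minus strand (GRCm38), and 173 of its 2301 annotated exon bases are shared with exons of Prdx2, a peroxide-removing enzyme gene on the other strand. Prdx2 itself averaged 309 ± 36.6 FPKM over knockouts and 377 ± 70.2 over wild types (SD, n = 4 each; limma adjusted p = 0.301), the opposite direction to Junb. Jun (chromosome 4, 95049034 to 95052222, minus strand, 1 exon), Jund (chromosome 8, 70698949 to 70700616, plus strand, 1 exon) and Atf3 each overlap a noncoding gene on the other strand that is not analysed here. Fos (chromosome 12, 85473890 to 85477273, plus strand), Fosb, Ier2, Ier3, Myc and Egr1 overlap no annotated gene.

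Myc, Egr1 and Atf3 had higher means in the knockouts, and none passed in the test by genotype alone, while Myc and Egr1 did with the RM code as a block. Myc read 107, 87.8, 90.0 and 41.8 FPKM across knockouts, with 41.5, 54.1, 25.2 and 38.1 across wild types. Knockout 4 alone fell within the wild-type range. The means were 81.6 ± 27.9 and 39.7 ± 11.9 FPKM (SD, n = 4 each), and the log2 change was 0.99 ± 0.31 (SE; limma adjusted p = 0.0568). Egr1 read 388, 178, 308 and 327 FPKM across knockouts, with 244, 223, 84.7 and 235 across wild types. Knockout 2 was below 3 of the 4 wild types, and the log2 change was 0.67 ± 0.36 (SE; limma adjusted p = 0.264). Within each RM code the knockout level of Egr1 was above the wild type, and with the code as a replicate block the change was 0.67 ± 0.13 and passed (limma adjusted p = 0.00712). Atf3 read 350.2, 156, 222 and 115 FPKM across knockouts, with 125, 181, 30.9 and 145 across wild types. Wild type 3 alone lay below every knockout, and the change was 0.94 ± 0.53 (SE; limma adjusted p = 0.295). Ier2 read 206, 219.9, 168 and 169 FPKM against 207, 226, 76.5 and 194, with a change of 0.22 ± 0.31 (SE; limma adjusted p = 0.696). Apart from wild type 3, the wild types were within or above the knockout range of Ier2.

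Wild type 3 was the lowest of all 8 libraries for 8 of the 10 genes, the exceptions being Ier3 and Jund. Over all genes tested it was the lowest for 8.64%. Its Atf3 level was 0.206 times the mean of the other 3 wild types, that of Jun 0.317 times and that of Fos 0.341 times, while Jund stood at 0.750 times and Ier3 at 1.30 times. The SD of the 10 genes among wild types had a median of 0.73 on the log2 scale, against 0.22 for all genes, and without wild type 3 it was 0.24 against 0.20. Among knockouts it was 0.47 against 0.24. Without wild type 3 the median change of the 10 genes was 0.08 in place of 0.46, and 1 gene, Ier3, passed as before (limma adjusted p = 0.00780), with 5.79% of all genes. Without knockout 4, which had the lowest Junb, Jund, Myc, Atf3 and Ier3 among knockouts, 3 genes passed as higher, with 9.35% of all genes. They were Ier3, Myc (1.28 ± 0.22, limma adjusted p = 0.00434) and Junb (1.05 ± 0.32, limma adjusted p = 0.0481).

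The knockout minus wild-type difference was more positive on codes 11 and 14 than on code 44 for all 10 genes. For Junb the knockout level was 2.67 times the wild type in code 11, 4.12 times in code 14, and 1.06 times in code 44, where means of 2 libraries were compared. Atf3 had ratios of 2.41, 5.06 and 1.10, Myc 2.81, 3.48 and 1.38, and Ier3 8.75, 8.02 and 3.32. Ratios of Egr1 were above 1 in each code (1.65, 2.10 and 1.36), and those of Fos were 0.931, 1.48 and 0.863. The knockout level was at least 2 times the wild type for 4 of 10 genes in code 11 (4.75% of all genes), 7 of 10 in code 14 (6.74%) and 1 of 10 in code 44 (8.28%). Wild type 3 is the code 14 control, and these folds between single libraries have no replicate check. Knockouts 1 and 2, of codes 11 and 14, were also the only libraries with Krt1 and Krt10 above 0. What set them apart in this was not tested. Over the 10 genes the fit on codes 11 and 14 alone gave a median log2 change of 0.84, with Ier3 (3.02 ± 0.22), Junb (1.73 ± 0.30, limma adjusted p = 0.0148) and Myc (1.61 ± 0.24, limma adjusted p = 0.00850) higher, against 5.93% of all genes, and 0 of 10 lower against 8.87%. On code 44 alone the median was -0.06 and Ier3 (1.74 ± 0.29, limma adjusted p = 0.0210) was higher, against 5.82% of all genes, with 0 of 10 lower against 5.13%.

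**Figure D3:**
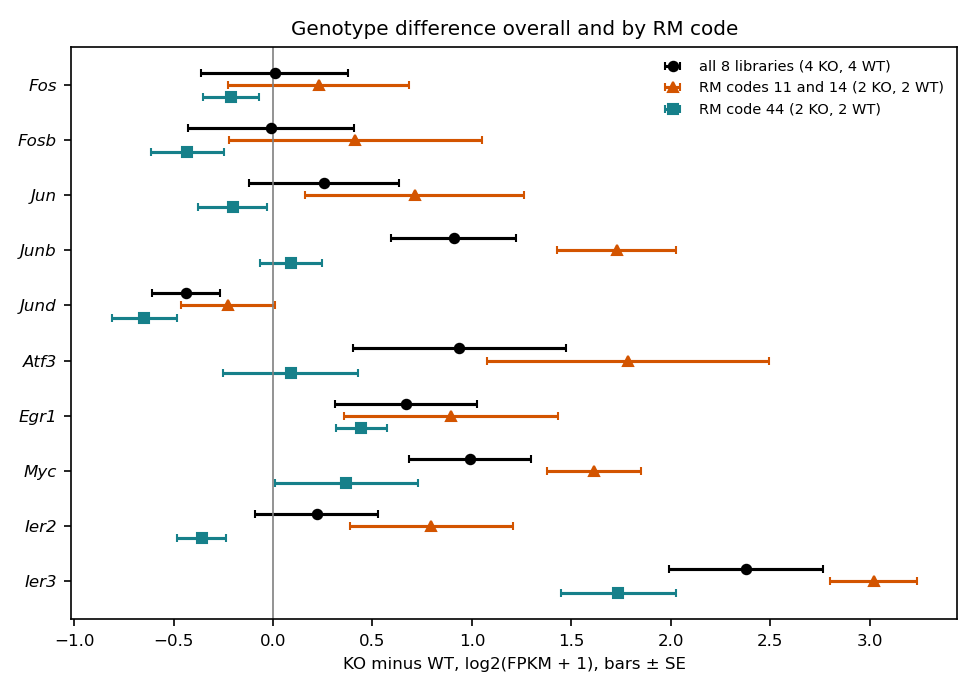
Log2 change, KO minus WT, of each gene (horizontal axis, log2(FPKM + 1), bars ± SE) from all 8 libraries, from RM codes 11 and 14, and from RM code 44. Orange triangles lie to the right of teal squares for all 10 genes, with Junb at 1.73 and 0.09.

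The difference between codes was itself tested by the interaction of genotype and code (44 against 11 and 14) in limma. No gene passed, neither among the 10 nor among all 11395, where 0% were called. At an unadjusted p under 0.05 the change was smaller in code 44 for 3 of 10 genes, against 3.28% of all genes. These were Junb (interaction -1.64 ± 0.36, SE; limma adjusted p = 0.182), Ier3 (-1.28 ± 0.40, limma adjusted p = 0.222) and Myc (-1.24 ± 0.50, limma adjusted p = 0.290). All 10 interactions were negative, with a median of -1.03, against 3797 negative of 11395 genes and a median of 0.16. Without wild type 3, 8 of 10 were negative and the median was -0.31 (0.19 over all genes), and without knockout 1, 8 of 10 were negative. Without wild type 4 the median was -1.55. Wild type 3 was then the only wild type left on codes 11 and 14, so that value rests on its low levels and is no check of the interaction. At equal genotype, code 44 differed from codes 11 and 14 for 0 of 10 genes (limma, 0% of all genes called), with 2 at an unadjusted p under 0.05 (25.8% of all genes), Fos (0.78 ± 0.27 higher in code 44) and Ier3 (-0.82 ± 0.28). With the code as an added term 3 genes passed as higher, Ier3, Myc (0.99 ± 0.30, limma adjusted p = 0.0470) and Egr1 (0.67 ± 0.13, limma adjusted p = 0.00712), with 9.07% of all genes. Array weights let 3 pass (17% of all genes), quantile normalization 2 (7.56%) and leaving out code 14 also 2 (3.51%).

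Other immediate early genes were set beside the 10. Of 54 named, 49 were tested on all libraries, and 8 rose and 1 fell, with a median log2 change of 0.54, against 6.72% higher and 8.94% lower among all genes. The risers included Bhlhe40, a clock and stress repressor (log2 change 2.02, 84.4 ± 22.9 against 19.7 ± 3.68 FPKM), Id3, an inhibitor of helix-loop-helix factors (2.11), Tnfaip3, a brake on NF-kB signalling (2.28), and Csrnp1 (1.46), and Btg1, which restrains proliferation, fell (-0.74). Their limma adjusted p values were 0.0211 or below. Without knockout 4 the count of risers was 17 (9.35% of all genes), and without knockout 2 it was 4 (4.37%). Without knockout 1, wild type 2 or wild type 4 it was 5 (5.23%, 4.09% and 6.61% of all genes). On codes 11 and 14 alone 24 of 53 were higher and 0 lower, where 5.93% and 8.87% of all genes were. On code 44 alone 3 of 48 were higher and 7 lower, where 5.82% and 5.13% of all genes were. The interaction was negative for 47 of 49 with a median of -1.03, and 27 had an unadjusted p under 0.05 in that direction, while 0 of the 49 passed adjustment in limma. With any 1 library left out, 17 to 32 of the 49 had such a p, against 1.89% to 7.73% of all genes.

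**Figure D4:**
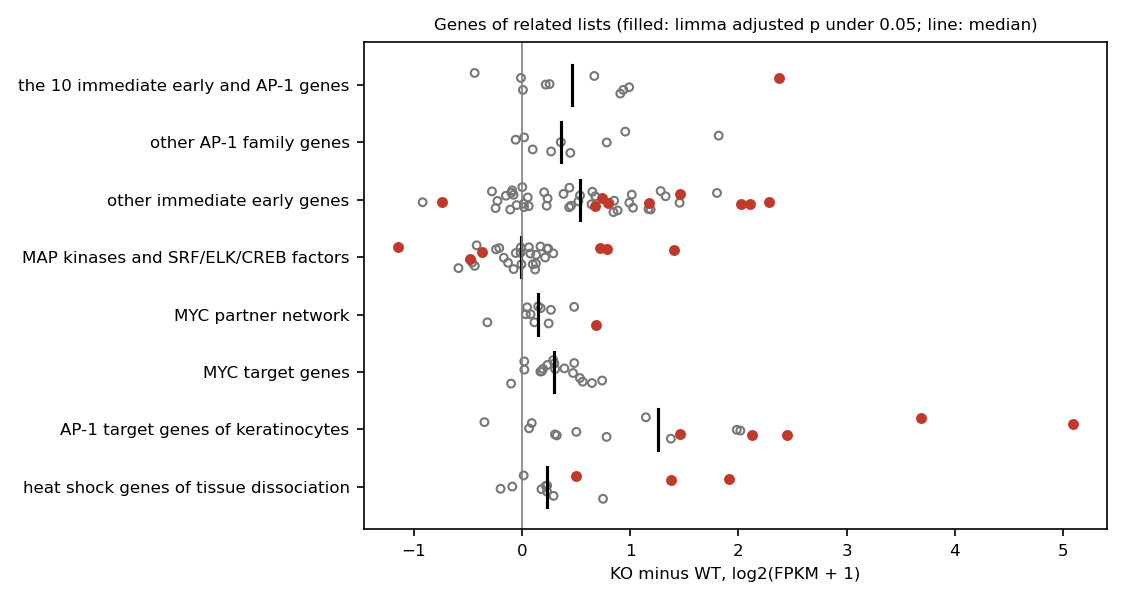
Log2 change, KO minus WT (horizontal axis, log2(FPKM + 1)), of each tested gene in the 10 genes and in 7 related lists, with genes at a limma adjusted p under 0.05 filled and the median of each list as a line. Medians are 0.46 for the 10 genes, 0.54 for other immediate early genes and -0.01 for the MAP kinases and SRF, ELK and CREB factors.

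The factors and kinases upstream of these genes showed no common direction. Of 30 tested MAP kinase, SRF, ELK and CREB genes 3 rose and 3 fell, near the shares of all genes (6.72% and 8.94%), with a median log2 change of -0.01 and 11 negative interactions. Mapk13 and Mapk14, both p38 kinases, fell (-1.15 and -0.48, limma adjusted p = 0.00148 and 0.0156), as did the ERK kinase Map2k2 (-0.37). The ribosomal S6 kinases Rps6ka1 (1.41) and Rps6ka4 (0.79) were among those that rose, with limma adjusted p of 0.0213 or below. Without wild type 1, 2 rose and 1 fell, against 4.09% and 5.6% of all genes. Of 9 tested further AP-1 genes none passed limma's test, while 4 had an unadjusted p under 0.05, all higher. At that p 1431 of all 11395 genes were higher. Fosl1, which encodes the Fos-related factor of wounded keratinocytes, read 39.5, 21.5, 8.07 and 1.87 FPKM across knockouts, with 1.77 to 3.54 across wild types (log2 change 1.82, limma adjusted p = 0.108). Knockouts 1 and 2 were the highest. Maf, a large Maf factor and the gene of the list with the smallest p, also had a higher mean in the knockouts. It read 11.6, 13.0, 27.1 and 30.6 FPKM across knockouts, with 8.05 to 10.7 across wild types (log2 change 0.95, limma adjusted p = 0.0562). For Maf, knockouts 3 and 4 were the highest, and the interaction was 1.01. Without knockout 4, 3 of the 9 passed as higher, against 9.35% of all genes. Without knockout 1, 2 or 3 the count was 1, against 5.23%, 4.37% and 4.15% of all genes.

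Genes known to lie downstream were examined in the same way. Of 16 tested AP-1 target genes of keratinocytes 5 rose and none fell, at a median of 1.26, against 6.72% and 8.94% of all genes. On codes 11 and 14 alone 12 of 18 were higher at a median of 1.95, against 5.93% of all genes. On code 44 alone 5 of 15 were higher at a median of 0.07, against 5.82% of all genes. The 5 were Tslp, S100a8, S100a9, Ivl and Sprr1b. Hbegf, an EGF receptor ligand induced by wounding, did not pass and read 182, 88.0, 57.1 and 34.3 FPKM across knockouts, with 44.8, 39.6, 11.6 and 30.5 across wild types (limma adjusted p = 0.116). Of 17 MYC target genes none passed limma's test and 16 were above 0, against 5797 of all 11395 genes. At an unadjusted p under 0.05, 6 of the 17 were higher and 0 lower, against 1431 and 1782 of all genes. Srm, a spermidine synthase gene, had the smallest p of the 17 (0.39, limma adjusted p = 0.0514). Without knockout 4, 3 of the 17 were higher, against 9.35% of all genes. Without wild type 2, 3 or 4 the count was 1, against 4.09%, 5.79% and 6.61% of all genes. In the MYC partner network 1 of 11 genes rose, Mlxip, near the share of all genes (6.72%). Mlxip did not pass without knockout 3, wild type 1 or wild type 2, when none of the 11 did. The shares of all genes were then 4.15%, 4.09% and 4.09%. Without knockout 1 the count was 2, against 5.23% of all genes. Of 12 heat shock genes known from tissue dissociation 3 rose and none fell, against 6.72% and 8.94% of all genes. The risers were Dnaja1 (1.91), Hspa5 (1.38) and Hsp90ab1 (0.50), and the other 9 did not pass, Dnajb1 among them (0.18). The 12 genes summed to 1976 FPKM in wild type 3 and to between 2278 and 2875 elsewhere. Wild type 3 was the lowest of the 8 libraries for 5 of the 12, against 8.64% of all genes.

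The likeness of 2 genes over the 8 libraries was measured by the root mean square difference of their log2 values, each centred on its own mean. Within the 10 genes the closest were Fosb and Jun (0.257), Jun and Egr1 (0.279) and Ier2 and Jun (0.294), and Junb was closest to Myc (0.337). Outside them Myc was nearest to Nfkbiz (0.171), Nfkbia (0.178) and Bbc3 (0.193), where the deviation of Myc itself was 0.671. Egr1 and Jun shared Zfp36 as their nearest (0.193 and 0.258), Atf3 had Nr4a1 (0.366) and Klf6 (0.379), and Ier2 had Dnajb1 (0.182). Zfp36 read 552, 340.3, 405 and 483 FPKM across knockouts, then 396, 397, 118 and 300.3 across wild types, with the lowest value in wild type 3. Ier3 was nearest to Sprr2k (0.355), Krt18 (0.359) and Prnd (0.395), against its own 1.32, and none of these was nearest to another of the 10 genes. The points share libraries and scaling, so these are descriptions.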

How the data were processed

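RNA was sequenced from epidermis of 4 knockout and 4 wild-type samples after ribosomal RNA depletion, as stranded paired-end libraries, per the labels' protocols. The deposited table holds FPKM values made by the authors, 1 per gene symbol and library, and the submitters' processing notes name mm10. The sources used here do not give the aligner, the annotation or the use of strand. FPKM carry no counts, so the absolute depth is unknown. Steps between low values put the relative depth of the libraries at up to 1.49 times that of knockout 1.

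A missing value, present for 2029 genes but none of the 10, was taken as 0. Knockout 1 had 0 missing values, and the other libraries had 603 to 1275 each. Of all genes 4 (Rn45s, Flg2, Krt1 and Krt10), at 0 in some libraries and very high in others, were left out of the tests. Krt1 was at 12094 and 13833 FPKM in knockouts 1 and 2, and Krt10 at 11387 and 13519. Both genes were at 0 in every other library. Whether knockouts 1 and 2 were quantified differently from the other libraries was not tested. Genes with at least 1 FPKM in at least 4 libraries (3 of 7 or 6, 2 of 4) were compared as log2(FPKM + 1) in limma 3.58.1 under R 4.3.3, using its trend option and Benjamini-Hochberg adjustment over all genes tested, at 0.05. Fold changes on this scale understate those of low genes. The script was tested on simulated data.

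The 10 genes and the lists were chosen with earlier results of these data known. Named genes were the 10, up to 4 with the smallest p in each list, list genes that passed, and the 3 nearest in pattern to each of the 10. Hbegf, and Prdx2 for its overlap, were chosen after their values were seen. The values of 1 list gene are not reported here. Alternatives were another pseudocount, filter and scaling, array weights, Xist or the RM code as a term, each library left out, and codes alone. Leaving out both libraries of code 14 was added after seeing the data. Positions are from GENCODE, promoters from RefSeq.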

Additional observations from a re-analysis of the deposited data

Results flagged for a closer look

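Egr1 in wild type 3, at 84.7 FPKM, lay far below the other 3 wild types, whose nearest value was 223, with a gap of 0.867 of the range of the group, above Dixon's critical value for 4 samples. It was 1 of 20 gene and group combinations examined in this way, and chance gives about 1 in 20. The gap was next largest for Ier2, also in wild type 3 (0.788).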

How the results depend on the processing

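Ier3 kept its direction and stayed past the threshold under all 18 alternatives (1.74 to 3.02), and no other gene of the 10 passed as lower under any. The number that passed as higher was 1 in all 8 libraries, 2 with quantile normalization or without code 14, and 3 with the code as a replicate block, with array weights or on codes 11 and 14 alone. With 1 library left out it was 1 to 3, and 3 without knockout 4 alone. Both counts by code, 0 of 10 genes, did not change under any alternative run. Signs turned for genes near 0. Ier2 was -0.36 on code 44 alone and -0.21 without code 14, with 1 library left out -0.14 to 0.38. Fos was -0.037 with upper quartile scaling, -0.45 with array weights, -0.21 on code 44 alone and -0.18 without code 14, with 1 library left out -0.38 to 0.21. Fosb was 0.039 with quantile normalization, 0.44 with Xist as a term and 0.41 on codes 11 and 14 alone, with 1 library left out -0.38 to 0.26. Jun was -0.079 with array weights, -0.20 on code 44 alone and -0.013 without code 14, with 1 library left out -0.16 to 0.45. Their cause was not tested. Junb passed with array weights (limma adjusted p = 0.0232), Myc with quantile normalization (limma adjusted p = 0.0488) and array weights (limma adjusted p = 0.00715), and Egr1 without code 14 (limma adjusted p = 0.0438). The count over all genes was 3669 with array weights and 1141 with Xist as a term, against 1785.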
